A study of Mus musculus with 6 samples.

Results

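Chromosome 6 of the mouse was examined in windows of 100 kb on build mm9, in the aligned reads of 6 libraries from embryonic stem (ES) cells. The chromosome has 1496 such windows, of which 1455 passed the filters, out of 25574 kept of 26427 in the genome. Chromosome 6 was chosen with earlier results of these data known, and all of its windows were taken. The place at which the level changes was chosen from measured values, IgG ChIP over H2A.B ChIP and 5mC replicate 3 over 5mC replicate 1, so the values of those ratios are given as a description with no test. Along chromosome 6 the level changed at 119500001. The 296 kept windows from there to the end of the chromosome, 30.0 Mb in all and called the far side here, stood higher than the 1159 windows towards the centromere, the near side. This was seen in every library with 50 bp reads and not in 5mC replicate 1 against H2A.B, the libraries with 42 bp reads. One block of the 5mC replicate 2 list lacked it as well. The ratio of the 42 bp libraries cannot show a rise that both share. By mean distinct reads per window, H2A.B rose 1.17-fold from the near to the far side and 5mC replicate 1 rose 1.21-fold. The libraries with 50 bp reads rose 1.95-fold to 2.84-fold.

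All libraries came from mouse ES cells of strain C57Bl/6, cultured with leukaemia inhibitory factor and no feeder layer. H2A.B, a short histone H2A variant, was recovered by chromatin immunoprecipitation (ChIP) with a home-made rabbit antibody (1 library), and rabbit IgG, a non-specific antibody, served as its background (1 library). 5-methylcytosine (5mC) was recovered from sheared, denatured DNA with the mouse antibody clone 33D3, an assay called MeDIP (3 libraries), with mouse IgG as background (1 library). The labels give no genotype, passage or clone of the cells, name no separate cultures for the 3 5mC libraries, and name the H2A.B antibody in 1 field of both IgG libraries. Cell identity cannot be checked against marker genes, because only DNA was sequenced.

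Mouse chromosomes carry the centromere at the end from which coordinates are counted, so the far side runs to the telomere. In any library of sheared DNA the number of reads from a region follows how many copies of it the cells hold, and also the base composition, the accessibility of the chromatin and the target of the antibody. IgG libraries hold mostly unspecific DNA and are therefore often read as a rough map of the input. Mouse ES cells are known to gain whole chromosomes or parts of them in culture, chromosomes 8 and 11 among them. No file measures copy number, so the values here are read levels. For scale only, a region at 3 copies against 2 would stand at 1.5-fold, or 0.58 log2 units, if copies alone set the level. On the same terms 4 copies against 2 would stand at 2-fold.

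Every read name of each list carried the same flow cell and lane, checked over all reads. H2A.B and 5mC replicate 1 came from lane 3 of 1 flow cell with 42 bp reads. 5mC replicate 2 and IgG MeDIP came from lane 1, and 5mC replicate 3 and IgG ChIP from lane 2, of a second flow cell with 50 bp reads. The lists held 124157 to 8053559 distinct reads on chromosomes 1 to 19, X and Y. On chromosome 6 the median count per window was 273 for H2A.B, 38 for 5mC replicate 1, 61 for replicate 2, 29 for replicate 3, 20 for IgG ChIP and 3 for IgG MeDIP. IgG MeDIP had no read in 116 of the 1455 windows, so its level is given over many windows together. Each ratio below is the log2 ratio of 2 lists in a window, each as CPM (distinct reads scaled to a fixed library total), set to 0 at the median autosomal window.

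The boundary was placed by a piecewise-constant fit to the mean of both ratios. A single break lowered the residual sum of squares by 23.1%, and it lay at 119500001. A second break lowered what was left by a further 6.50% and was kept, and the third (3.40%) was not. The fit gave 3 stretches. From 3000001 to 112200000 the mean of both ratios was 0.04 over 1089 windows. From 112200001 to 119500000 it was -0.54 over 70 windows. From 119500001 to 149500000 it was 0.67 over 296 windows. Each ratio fitted alone put the largest break at the same window. Among the 19 autosomes, chromosome 6 had the largest break of either sign, 1.21 log2 units between adjoining stretches, followed by 1.11 on chromosome 12 and -1.10 on chromosome 17. Much of that size came from the low stretch just before the boundary, so steps are given below against the whole near side.

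In IgG ChIP over H2A.B the median window stood at -0.03 on the near side and 0.68 on the far side, a step of 0.71 log2 units (1.64-fold). The summed reads gave 1.67-fold (95% interval 1.63 to 1.71, counting error only). On the far side 287 of 296 windows lay above the near-side median. A window was called raised where its centred log2 ratio was at least 0.32, and over all autosomes 27.9% of windows were. On the far side 239 windows (80.7%) were raised and 0 were lowered by as much. On the near side 305 windows (26.3%) were raised and 317 (27.4%) lowered, against 27.4% lowered over all autosomes. The near side was thus close to the rest of the genome by this count, and since the boundary was placed on this ratio, the far-side count is a description.

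In 5mC replicate 3 over 5mC replicate 1 the median went from 0.04 on the near side to 0.62 on the far side, a step of 0.58 (1.50-fold). The summed reads gave 1.61-fold (1.57 to 1.66). On the far side 202 windows (68.2%) were raised and 10 (3.38%) lowered, where 33.4% of all autosomal windows were raised and 34.3% lowered in this ratio. The spread between windows was wider than for IgG ChIP. The middle 80% of near-side windows ran from -0.91 to 0.99, and that of the far side from -0.10 to 1.46, so the 2 sides overlapped window by window. Limited to 10 Mb on each side of the boundary, where the near side was low, the step in this ratio was 0.98.

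**Figure D1:**
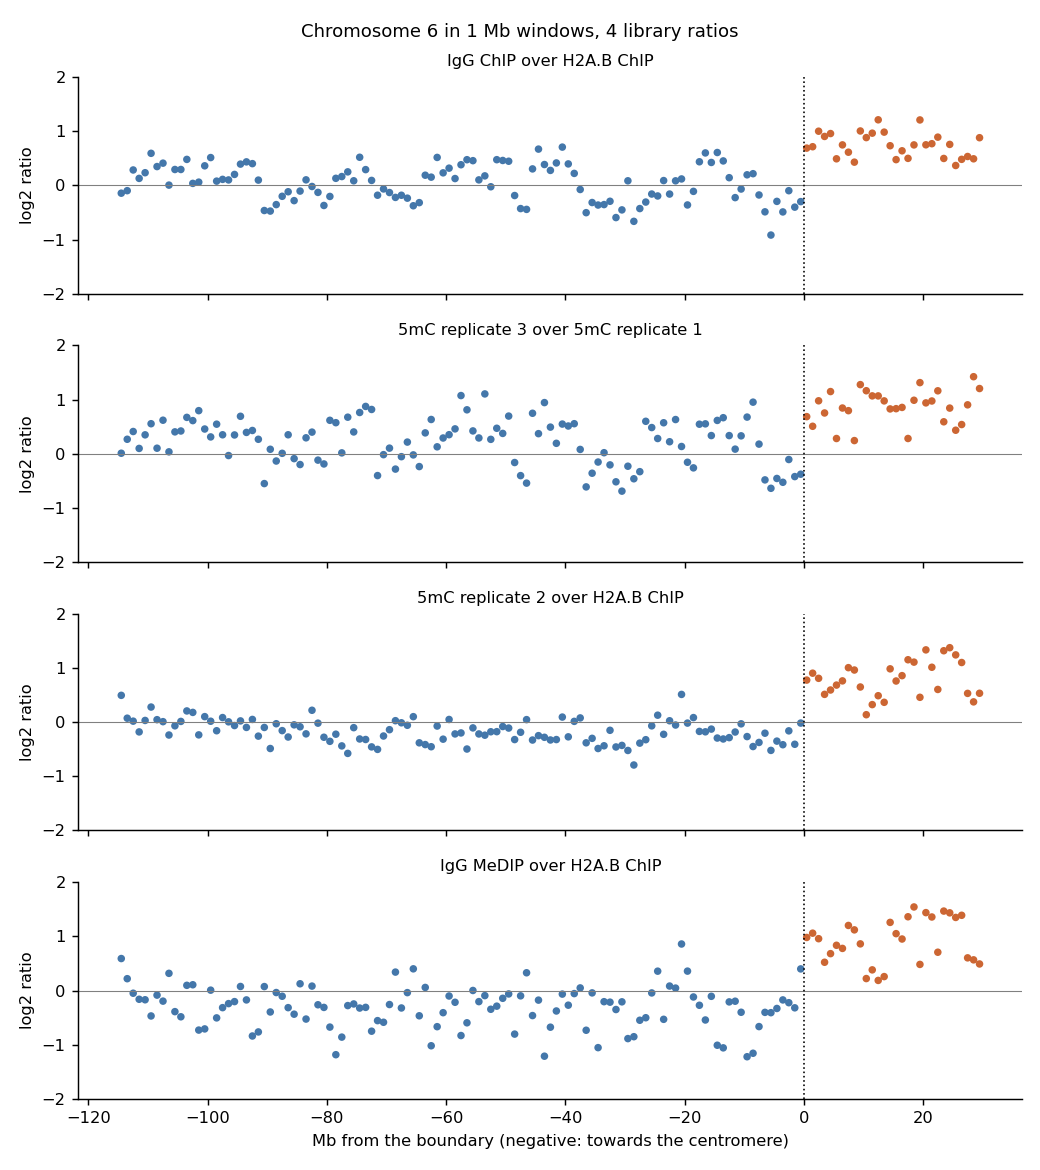
Log2 ratios on chromosome 6 in windows of 1 Mb, as sums of distinct reads set to 0 at the autosomal sum, against the distance in Mb from the boundary (dotted line). Near-side windows are blue and far-side windows orange. All 30 far-side windows are above 0 in each of the 4 ratios, while the near-side windows lie on both sides of 0.

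The windows on either side of the boundary were compared one by one, first in the ratios that placed it. The last near-side window, 119400001 to 119500000, held 477 distinct reads of H2A.B and 33 of IgG ChIP, a ratio of 0.02. The first far-side window, 119500001 to 119600000, held 369 and 42, a ratio of 0.74. The 4 near-side windows before them had ratios of -0.47, -0.06, -0.26 and -0.45, and the 4 far-side windows after them 0.63, 0.75, 0.49 and 1.56. For this ratio the 5 windows on one side did not overlap the 5 on the other. The same windows of 5mC replicate 3 over replicate 1 ran from -1.07 to -0.17 before the boundary and from 0.38 to 1.80 after it, also without overlap. The boundary was placed on these ratios, so part of that separation is built in. In libraries that had no part in placing it, the sides overlapped. 5mC replicate 2 over H2A.B ran from -0.26 to 0.67 before it and from 0.34 to 0.79 after it. IgG MeDIP over H2A.B, with 2 to 11 reads in a window, ran from -0.37 to 0.90 and from -0.64 to 1.29.

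Fitted to reads in 10 kb bins over 10 Mb on each side, the boundary fell at 119500001 for IgG ChIP over H2A.B (interval 119270001 to 119690001) and at 119550001 for 5mC replicate 3 over replicate 1 (119180001 to 119740001). 5mC replicate 2 over H2A.B placed it at 119440001 (119340001 to 119480001). The window before the boundary already held 166 reads of replicate 2, against 77 to 134 in the 4 windows before it. IgG MeDIP, with 1376 reads in that range, gave 118450001 (118340001 to 118760001), which does not overlap the others. With the 50 bp lists pooled, the fourth block of the replicate 2 list apart (below), against the pooled 42 bp lists, the boundary was 119440001 (119380001 to 119470001). These intervals are the drop in log-likelihood that a 95% interval needs, after division by the spread of 1 Mb sums, and they hold only for a single break. Genes at the boundary are not named, because an annotation of mm9 was not used here.

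5mC replicate 2 and IgG MeDIP had no part in choosing the boundary, though H2A.B, by which they were divided, did. 5mC replicate 2 over H2A.B had a near-side median of -0.10 and a far-side median of 0.81, a step of 0.90 (1.87-fold), and 2.06-fold by summed reads (2.03 to 2.09). On the far side 256 windows (86.5%) were raised, against 24.7% over all autosomes and 178 near-side windows (15.4%). IgG MeDIP over H2A.B had medians of -0.15 and 0.93, a step of 1.08 (2.11-fold), and 2.42-fold by summed reads (2.30 to 2.54). There 236 far-side windows (79.7%) were raised, against 34.4% over all autosomes and 27.2% on the near side. With 1 library on each side of a ratio there is no replicate check and no test was made. Divided by 5mC replicate 1 in place of H2A.B, the steps were 0.86 for 5mC replicate 2, 1.07 for IgG MeDIP and 0.54 for IgG ChIP.

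Libraries from 1 lane were then compared with each other. In 2 of the 3 pairs the sides differed little. 5mC replicate 1 over H2A.B had medians of -0.10 and -0.04 on the near and far sides, a step of 0.06, and 1.03-fold by summed reads (1.01 to 1.05). IgG ChIP over 5mC replicate 3 had 0.03 and 0.04, a step of 0.01, and 1.01-fold by summed reads (0.976 to 1.04). The remaining pair was 5mC replicate 2 over IgG MeDIP. It had 0.08 and -0.12, a step of -0.20, and 0.852-fold by summed reads (0.811 to 0.895). The rise was thus smaller in the whole list of 5mC replicate 2, which includes a block without it (below). Over H2A.B, the other blocks of that list gave 2.37-fold and 2.33-fold by summed reads, against 2.42-fold for IgG MeDIP. The 2 ratios on which the boundary was placed therefore compare the same pair of lanes. The 3 5mC libraries gave steps over H2A.B of 0.06, 0.90 and 0.65 in replicates 1, 2 and 3, with a mean of 0.54 ± 0.43 (SD, n = 3). Without replicate 2 the mean was 0.35, and without replicate 1 it was 0.77. Replicate 1, the only 5mC library on the first flow cell, gave the lowest value.

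**Figure D2:**
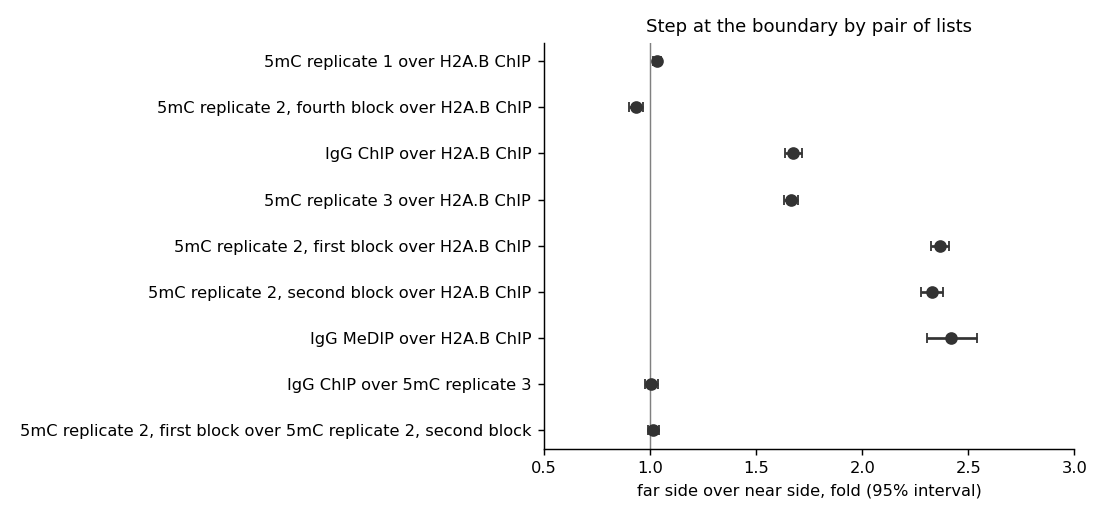
Far side over near side of chromosome 6 as a fold, from summed distinct reads, for 9 pairs of lists; bars are 95% intervals for counting error. The pair of 42 bp libraries, IgG ChIP over 5mC replicate 3, and the first over the second block of the replicate 2 list lie close to 1, the fourth block lies at 0.932, and the other lists over H2A.B lie between 1.66 and 2.42.

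The list of 5mC replicate 2 consists of 4 blocks, each sorted by position, and the third holds the reads of IgG MeDIP, which were removed. The other blocks differed on chromosome 6 although all reads came from lane 1 and were 50 bp long. The first block (1000353 distinct reads) had medians over H2A.B of -0.16 and 0.96 on the near and far sides, a step of 1.12. The second block (620156 distinct reads) had -0.16 and 0.95, a step of 1.10. The fourth block (338489 distinct reads) had 0.06 and -0.09, a step of -0.16, and 0.932-fold by summed reads (0.900 to 0.965). In it 66 far-side windows (22.3%) were raised, against 28.2% over all autosomes, and 98 (33.1%) were lowered, against 28.7%. The step of the whole list was 0.90, and without the fourth block it was 1.14.

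The blocks could be compared with one another without H2A.B. The first block over the fourth stood at a median of -0.24 on the near side and 1.14 on the far side, and the second over the fourth at -0.23 and 1.04. By summed reads these steps were 2.54-fold (2.44 to 2.64) and 2.50-fold (2.40 to 2.60). The unadjusted local step at the boundary, taken as for the other ratios further below, was 0.728 and 0.732. On other autosomes, 1090 and 824 positions reached these values, so locally the boundary did not stand out in these ratios. On the far side 227 (76.7%) and 239 (80.7%) windows were raised, against 34.9% and 35.7% over all autosomes. One stretch of the far side went against this. At 129500001 to 134500000 the first over the fourth block stood at 0.01 and the second over the fourth at 0.31, against 0.80 to 1.69 in the other 5 segments of 5 Mb. Within it the first over the fourth block fell to -0.75 in the 1 Mb from 131500001, below the near-side median. The first over the second block gave 1.02-fold (0.990 to 1.04) over the 2 sides. The summed level of the far side thus differed between lists of the same lane and read length. Which sample the fourth block came from is not given in the sources used here.

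**Figure D3:**
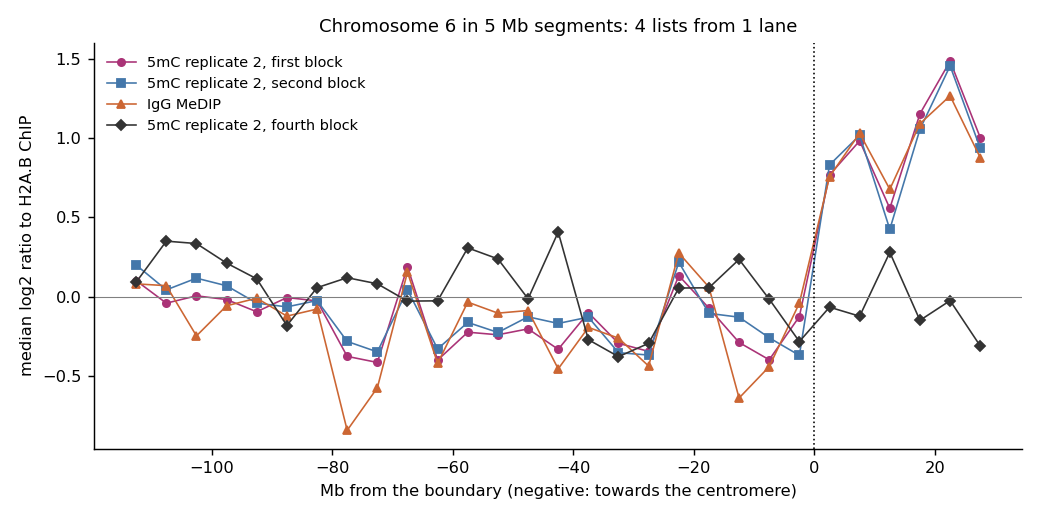
Median log2 ratio to H2A.B ChIP in 5 Mb segments of chromosome 6, against the distance of the segment centre from the boundary in Mb, for 4 lists read on 1 lane. The first and second blocks of the replicate 2 list and IgG MeDIP stand at 0.42 or more in all 6 far-side segments, and the fourth block between -0.31 and 0.28.

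Undivided levels showed the same split. Relative to the mean of the other autosomes, the near side stood at 0.917 in H2A.B, 0.815 in 5mC replicate 1, 0.821 in replicate 2, 0.889 in replicate 3, 0.901 in IgG ChIP and 0.776 in IgG MeDIP. The far side stood at 1.08 in H2A.B, 0.987 in 5mC replicate 1 and 1.06 in the fourth block. It stood at 1.99 in 5mC replicate 2, 1.74 in replicate 3, 1.77 in IgG ChIP and 2.20 in IgG MeDIP. The near side was therefore below the other autosomes in every library, and the far side was far above them only in lists with 50 bp reads other than the fourth block. In reads per window, the median went from 255 to 341 in H2A.B and from 36 to 48.5 in 5mC replicate 1 between the near and the far side. It went from 18 to 36 in IgG ChIP, from 27 to 54 in 5mC replicate 3 and from 3 to 9 in IgG MeDIP.

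Over H2A.B, the raised level ran through the whole far side. The far side was cut into 6 segments of 5 Mb, and the near side into 23. IgG ChIP over H2A.B was lowest on the far side at 144500001 to 149500000, with 0.52, and highest at 129500001 to 134500000, with 0.94. Its near-side segments ran from -0.46 at 84500001 to 89500000 to 0.48 at 74500001 to 79500000, so no segment of the near side reached the far side. 5mC replicate 2 over H2A.B ran from -0.32 to 0.16 on the near side and from 0.40 to 1.29 on the far side, and IgG MeDIP over H2A.B from -0.84 to 0.28 and from 0.68 to 1.27. In 5mC replicate 3 over replicate 1 the sides overlapped, with a highest near-side segment of 0.48 at 14500001 to 19500000 and a lowest far-side segment of 0.38 at 124500001 to 129500000.

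In the ratios over H2A.B, before any adjustment, the libraries did not share the shape within the far side. At 129500001 to 134500000, where IgG ChIP over H2A.B was highest, 5mC replicate 2 and IgG MeDIP over H2A.B were lowest, at 0.40 and 0.68. At 139500001 to 144500000 the latter 2 were highest, at 1.29 and 1.27, where IgG ChIP stood at 0.67. The segment at 129500001 also had the lowest H2A.B level of the far side, with a median of 23.5 CPM against 39.1 to 52.3 in the others.

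Chromosomes 2 and 4 served as reference. On chromosome 4 the largest break lay at 116400001, and the 388 windows beyond it stood lower, by -0.60 in IgG ChIP over H2A.B and -1.06 in 5mC replicate 3 over replicate 1. The fourth block over H2A.B moved alike, by -0.60, and 5mC replicate 3 over H2A.B moved by -0.50. The full list of 5mC replicate 2 and IgG MeDIP did not share that step. Over H2A.B they moved by -0.05 and 0.03, while 5mC replicate 1 over H2A.B moved by 0.53. On chromosome 2 the largest break lay at 36000001. It separated a stretch of 112 windows at -0.81 from 1151 windows at 0.09, and with all windows beyond it set against all windows before it the steps were 0.16 in IgG ChIP over H2A.B and 0.28 in 5mC replicate 3 over replicate 1. In 5mC replicate 2 and IgG MeDIP over H2A.B they were -0.001 (-0.00115) and -0.02. A step of this size in the 2 ratios of the rule was thus also found on chromosome 4, in the opposite direction. Between adjoining stretches the mean of both ratios moved by -0.76 on chromosome 4 and 1.21 on chromosome 6. On chromosome 2 it rose by 0.89, so an upward break was found on a reference chromosome as well. On chromosome 6 the step was shared by both IgG libraries and 5mC replicates 2 and 3 and was near 0 in 5mC replicate 1 over H2A.B, and the step at the largest break of chromosome 2 or 4 was not shared in this way.

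Regional ratios between the lanes also varied with the level of the 42 bp libraries. Autosomal windows were split by H2A.B level into 4 classes of equal number, and near-side IgG ChIP over H2A.B went from 0.39 in the lowest class to -0.50 in the highest. H2A.B is also the denominator of that ratio, so part of this trend can be built in. The step was present in each class, at 0.63, 0.92, 0.85 and 0.97 from the lowest to the highest. For 5mC replicate 3 over replicate 1 it was 0.67, 0.77, 0.84 and 0.96. For 5mC replicate 2 over H2A.B it was 0.47, 0.71, 0.98 and 1.28, and for IgG MeDIP over H2A.B 0.83, 0.66, 1.22 and 1.40. The fourth block gave 0.10, 0.005 (0.00477), -0.09 and -0.12. The far side was therefore higher at matched H2A.B level as well, with 45 to 97 far-side windows in a class.

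The level of each 50 bp list was then adjusted in 1 Mb windows for 2 measures of the 42 bp libraries, H2A.B per window and 5mC replicate 1 over H2A.B, with the adjustment fitted on 1819 autosomal windows outside chromosomes 1, 6, 8 and 11. It accounted for 83.9% of the variance of IgG ChIP over H2A.B and 83.5% of that of 5mC replicate 3, but only 6.27% for 5mC replicate 2 and 7.38% for IgG MeDIP. For the blocks of the replicate 2 list it accounted for 11.1% in the first, 7.45% in the second and 68.2% in the fourth. H2A.B was also the denominator of each ratio, so part of these shares can be built in. The fourth block thus also differed from the others in this fit, made outside chromosome 6. After the adjustment, IgG ChIP had a median of -0.02 over 116 near-side windows and 0.85 over 30 far-side windows, a step of 0.87 (1.82-fold). Its near-side windows ran from -0.38 to 0.30 and its far-side windows from 0.55 to 1.10, without overlap. For 5mC replicate 3 the step was 0.85 (1.80-fold), with near-side windows up to 0.19 and far-side windows from 0.50. For 5mC replicate 2 it was 1.00 (1.99-fold), and for IgG MeDIP 1.15 (2.22-fold). In each of these, 7 near-side windows reached the lowest far-side window. The fourth block had a step of 0.01, with medians of 0.02 and 0.03. After adjustment all 4 libraries were lowest on the far side in the same stretch, IgG ChIP (0.55) and 5mC replicate 2 (0.33) in the window from 130000001, and 5mC replicate 3 (0.50) and IgG MeDIP (0.40) in the window from 131000001. The high ratio of IgG ChIP over H2A.B in that stretch was thus not kept under the adjustment.

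In these adjusted levels the largest upward local step of all 19 autosomes lay near the boundary of chromosome 6 in each of these 4 libraries. The boundary was chosen from ratios of IgG ChIP and 5mC replicate 3, and the adjustment was chosen after seeing the data. These ranks are therefore a description. A local step is the median of 5 windows of 1 Mb after a position minus that of the 5 before it, over 2231 positions. The highest value lay at 119000001 for IgG ChIP (1.08), at 120000001 for 5mC replicate 3 (1.02), and at 118000001 for 5mC replicate 2 (1.22) and IgG MeDIP (1.33). The highest value on another autosome was 0.40 on chromosome 5 for IgG ChIP and 0.52 on chromosome 1 for 5mC replicate 3. It was closer for 5mC replicate 2, with 1.03 on chromosome 8, and for IgG MeDIP, with 1.18 on chromosome 3. On chromosomes 2 and 4 the highest upward local step was 0.34 in IgG ChIP and 0.82 in IgG MeDIP. In the fourth block the highest value on chromosome 6 was 0.31 and stood 26th. Without the adjustment the step at 119500001, over 50 windows of 100 kb on each side, was 1.14 in IgG ChIP over H2A.B, and 44 positions on other autosomes reached it. For 5mC replicate 3 over replicate 1, 5mC replicate 2 over H2A.B and IgG MeDIP over H2A.B, 85, 35 and 116 positions on other autosomes reached the value at the boundary. In 5mC replicate 3 over replicate 1 the highest unadjusted step was 1.38 on chromosome 2 and 1.35 on chromosome 4, above 1.24 at the boundary. In IgG MeDIP over H2A.B it was 0.94 on chromosome 2, above 0.82 at the boundary, and 0.75 on chromosome 4. Both reference chromosomes stayed below the boundary in IgG ChIP and 5mC replicate 2 over H2A.B, with at most 0.89 and 0.64.

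Joint rises without adjustment were not limited to chromosome 6. Over H2A.B, all 4 libraries with 50 bp reads rose by 0.5 or more at 90 of 22046 positions, 44 on chromosome 6, 37 on chromosome 1 and 9 on chromosome 7. At a threshold of 0.3 there were 208 positions, 79 of them on chromosome 6 and 129 on other autosomes. There were 44 on chromosome 1, 26 on chromosome 7, 23 on chromosome 17, 20 on chromosome 15 and 15 on chromosome 8. Chromosome 2 had 1 and chromosome 4 none. Those of chromosome 6 lay between 92000001 and 122200001. Neighbouring positions share windows, so they are not separate events. The position where the smallest of the 4 rises was highest lay at 144400001 on chromosome 1, with 1.06, against 0.82 at the boundary of chromosome 6. There 5mC replicate 1 and the fourth block over H2A.B rose too, by 1.24 and 1.34. At the boundary of chromosome 6 they moved by -0.13 and 0.21. On chromosome 1 the high level was not local. Its 535 windows from 142900001 to 197200000 had medians over H2A.B of 0.89 in IgG ChIP and 0.87 in 5mC replicate 3. They had 0.89 in 5mC replicate 2, 0.94 in IgG MeDIP and 0.56 in 5mC replicate 1. The far side of chromosome 6 had 0.68, 0.63, 0.81, 0.93 and -0.04 in that order.

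**Figure D4:**
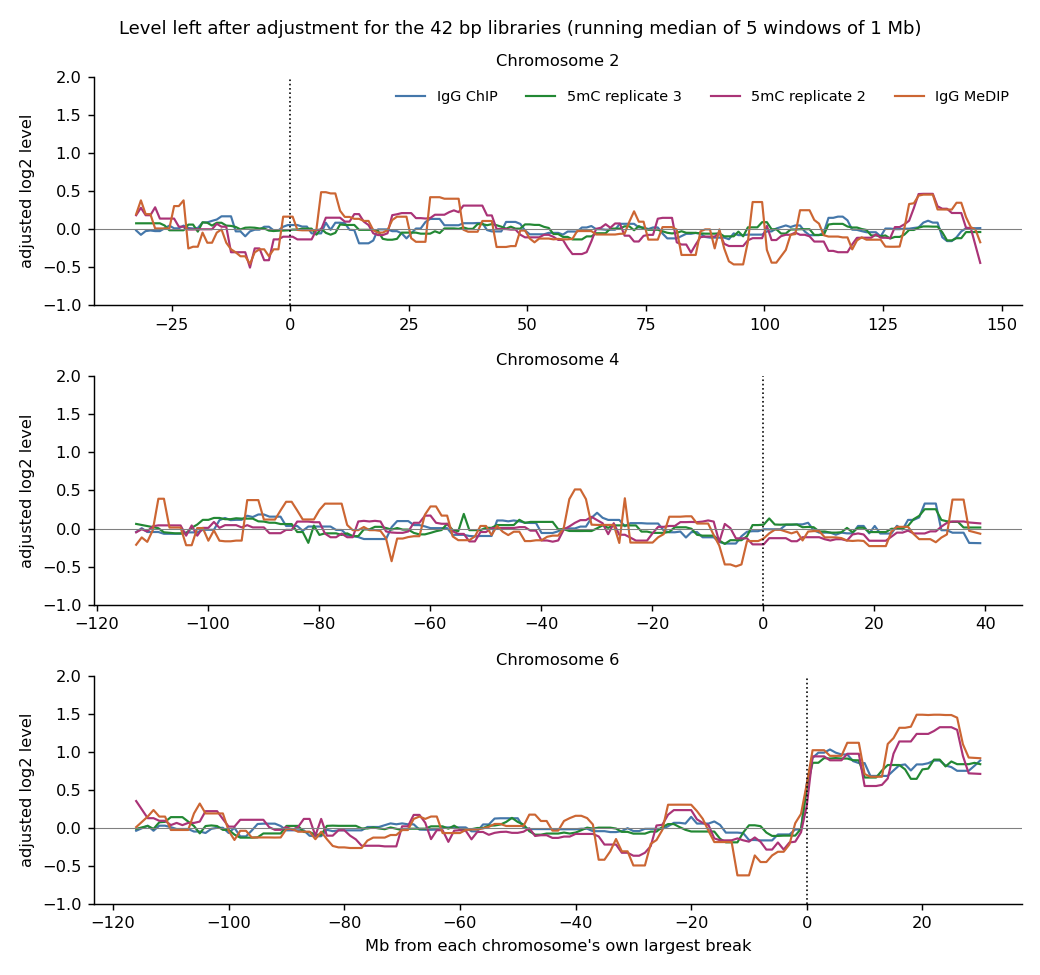
Adjusted log2 level (running median of 5 windows of 1 Mb) on chromosomes 2, 4 and 6 in 4 libraries, against the distance in Mb from each chromosome's own largest break (dotted line). All 4 lines pass from about 0 or below to 0.5 or more at the boundary of chromosome 6 and remain there to the end. At the largest breaks of chromosomes 2 and 4 the lines show no such rise.

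Library quality measures were compared between the 2 sides. The share of distinct reads was lower on the far side in IgG ChIP (73.6% against 78.2%), in 5mC replicate 3 (55.2% against 63.9%) and in 5mC replicate 2 (69.4% against 72.7%). It was alike in H2A.B (95.3% against 95.0%), 5mC replicate 1 (80.6% against 80.9%) and IgG MeDIP (88.6% against 88.4%). With all reads as listed, repeats at a position included, the steps were 0.78 in IgG ChIP over H2A.B and 0.78 in 5mC replicate 3 over replicate 1. The share of distinct reads on the forward strand was 47.1% to 47.9% on the far side of the 50 bp libraries and 44.8% to 46.2% on the near side. In H2A.B and 5mC replicate 1 it was 52.1% and 55.4% on the far side and 52.7% and 56.5% on the near side. The step was present on each strand, at 0.72 for forward and 0.61 for reverse reads in IgG ChIP over H2A.B and at 0.73 and 0.44 in 5mC replicate 3 over replicate 1. The part of read length in the step was not tested, and for the libraries other than the blocks of 5mC replicate 2, flow cell, read length and source of the cells cannot be told apart.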

How the data were processed

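The files deposited by the authors are lists of aligned reads, 1 line per read with its position, name, strand and a score. That score has 1 value throughout the deposited lists and plays no part here. Per the submitters' processing notes, alignment used Bowtie and build mm9, and quality was assessed with FastQC. Versions, settings and the handling of multiple matches are not stated there. The 9 malformed lines of 2 lists were left out, as were the 201263 reads of 5mC replicate 2 shared with IgG MeDIP. A further 2691 reads of replicate 2 without a strand were kept. Reads with the same chromosome, strand and 5′ end counted as 1, in 100 kb windows, as CPM of chromosomes 1 to 19, X and Y. Filters removed windows whose mean CPM was under 25% of the median or where a library was over 10 times its own median. Ratios had 0.5 reads added to each count and were set to 0 at the autosomal median.

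The boundary is the largest step of a least-squares fit of up to 3 breaks, at least 5 Mb apart, a further break being kept where it lowered the residual sum of squares by 5% or more. The windows named are the 5 on each side of it and the extreme 5 Mb segments. The fit was tested on simulated data with counting error only. They lacked the regional differences between libraries seen here, so that test does not cover them. The members, lists and measures were chosen with earlier results of these data known. Intervals are 95% and cover counting error only; those of folds between 2 lists are normal approximations on the log odds ratio, in place of the exact intervals planned. The planned correction for base composition was not made, because no mm9 sequence was used here. Python 3.11.15, numpy 2.4.6 and pandas 2.3.3 were used.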

Additional observations from a re-analysis of the deposited data

Results flagged for a closer look

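The list of 5mC replicate 2 also held 201263 reads that are the whole of the IgG MeDIP list, which drew attention as signal in reads the comparisons leave out. They form 1 of its 4 blocks. With these reads kept, the chromosome 6 step of 5mC replicate 2 over H2A.B was 0.92 in place of 0.90.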

How the results depend on the processing

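The step kept its direction under every setting run for IgG ChIP over H2A.B (11 settings), 5mC replicate 3 over replicate 1 (10), IgG MeDIP over H2A.B (11) and the mean 5mC (14), and under 14 of 15 for 5mC replicate 2 over H2A.B. The exception was the fourth block of its list alone (-0.16), while the first block gave 1.12. Values below are in the order IgG ChIP over H2A.B, 5mC replicate 3 over replicate 1, 5mC replicate 2 over H2A.B and IgG MeDIP over H2A.B, where those that moved by less than counting error are left out. Windows of 50 kb gave 0.71 for 5mC replicate 3, 0.86 for replicate 2 and 0.89 for IgG MeDIP. Windows of 500 kb gave 0.67 for IgG ChIP, 0.95 for replicate 2 and 1.33 for IgG MeDIP. All reads as listed gave 0.78, 0.78 and 0.99 for the first 3. Forward-strand reads gave 0.73, 0.98 and 0.90 for the last 3, and reverse-strand reads 0.61, 0.44, 0.85 and 0.96. Summed counts gave 0.69, 1.04 and 1.27 for the last 3. Settings chosen after seeing the data were 5mC replicate 1 as denominator (0.54 for IgG ChIP and 0.86 for 5mC replicate 2), 10 Mb on each side (1.04, 0.98 and 1.00 for the first 3), adjustment for the 42 bp libraries in 1 Mb windows (0.87, 0.85 and 1.00 for the first 3), the fourth block alone, and 5mC replicate 2 without it (1.14). The cause of these shifts was not tested. Leaving out 1 5mC replicate gave a mean step of 0.35 to 0.77. The boundary of the 2 ratios that placed it lay between 119400001 and 119550001 under all settings run. Correction for base composition was not run. No paired analysis was possible because only the 5mC libraries carry replicate numbers, and pairs from 1 lane are given above as ratios. Depth limits IgG MeDIP, with 3 reads in the median window, to levels over many windows.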
